A study of Mus musculus with 9 samples.

Results

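The genes described here are 35 mouse genes of glycolysis and of the response to low oxygen, out of 55335 genes in the deposited tables. They were found by gene symbol through their Ensembl identifiers. The set holds 16 glycolytic enzymes, 6 transporters and regulators of glycolytic flux, and 13 genes made up of Hif1a and targets of the hypoxia-inducible factors (HIF) that are not glycolytic enzymes. Aldoa is carried by 2 rows of the files, so the 35 genes take 36 rows; the row with more counts stands for Aldoa, and the other, with means of 2.89 CPM in shMed1 #2 samples, 3.25 CPM in shMed1 #4 samples and 3.87 CPM in NTC samples, was not called with either hairpin. Of the 35 genes, 32 had enough counts to be tested. Aldoc, Car9 and Adm did not.

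RNA was sequenced from D2A1-d, a mouse breast carcinoma cell line grown in culture in serum-containing medium. Cells of 3 kinds were compared. In the first and second, labelled as Med1 knockdown, the cells carried 1 of 2 hairpins directed at Med1 mRNA, shMed1 #2 or shMed1 #4, brought in by transduction. In the third, labelled wild type, they had been transduced with a non-targeting control hairpin (NTC). Each group held 3 samples, all from the 1 cell line. The labels record no other treatment and no oxygen level for any group. They call the samples biological replicates without saying whether these came from separate transductions or cultures. The p-values thus set differences between groups only against the scatter of these samples within groups, and that scatter may be technical.

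Glycolysis splits glucose into pyruvate in the cytosol, and lactate dehydrogenase then turns pyruvate into lactate. Carcinoma cells often run it at high rates even with oxygen present. HIF is a pair of proteins, an oxygen-labile alpha chain and the constitutive partner ARNT. With oxygen, prolyl hydroxylases of the EGLN family mark the alpha chain for destruction by the VHL ubiquitin ligase; without it, the pair accumulates and switches on genes for glycolysis, angiogenesis, mitophagy and collagen modification. Most glycolytic enzymes are themselves HIF targets. The MED1 protein belongs to Mediator, which links DNA-bound factors to RNA polymerase II.

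Library totals lay between 8123918 and 8879982 counts, and 3 counts corresponded to 0.345 to 0.364 CPM, the unit used below, in which a gene's count is set against the TMM-scaled size of its library. Med1 mRNA was low with both hairpins, with 22.1, 25.2 and 24.7 CPM in shMed1 #2 samples, 25.02, 26.6 and 25.5 CPM in shMed1 #4 samples and 85.6, 87.5 and 79.8 CPM in NTC samples. Its log2 fold change against NTC was -1.81 (adjusted p = 5.67e-36, SE 0.0746) with shMed1 #2 and -1.71 (adjusted p = 6.39e-34, SE 0.0739) with shMed1 #4. Among the markers of the cell type, Krt18 averaged 18.8 CPM in shMed1 #2 samples, 43.7 CPM in shMed1 #4 samples and 50.7 CPM in NTC samples, while Epcam and Cldn4 had 0 counts in all samples and Cdh1 at most 2. Of 6 epithelial markers, 2 reached a mean of 1 CPM, and their sum ranged over 19.8 to 22.6 CPM for shMed1 #2, 41.6 to 52.02 CPM for shMed1 #4 and 56.9 to 58.3 CPM in NTC. The 3 mesenchymal markers all reached a mean of 1 CPM. Vim averaged 2778 CPM in shMed1 #2 samples, 2444 CPM in shMed1 #4 samples and 1872 CPM in NTC samples. Fn1 averaged 1923 CPM in shMed1 #2 samples, 2398 CPM in shMed1 #4 samples and 2216 CPM in NTC samples, and Cdh2 averaged 5.00, 1.64 and 3.23 CPM in that order of groups. Their sum ranged over 4583 to 4791 CPM for shMed1 #2, 4761 to 4979 CPM for shMed1 #4 and 3990.3 to 4164 CPM for NTC. The carcinoma label thus stands beside low epithelial adhesion genes. Of 4 fibroblast and pericyte markers, Pdgfra and Pdgfrb were present, and the sum was 73.7 to 81.5 CPM for shMed1 #2, 94.95 to 109 CPM for shMed1 #4 and 149 to 167 CPM in NTC, with Rgs5 and Dcn at no more than 1 count. Summed leukocyte markers (6 genes, with Cd3e, Itgam and Adgre1 at 0) lay between 0.46 and 1.63 CPM for shMed1 #2, 0.232 and 0.602 CPM for shMed1 #4, and 0.723 and 1.33 CPM in NTC. Endothelial markers summed to at most 1.04 CPM, and Hba-a1 and Hbb-bs were at 0. The part of these epithelial, mesenchymal and fibroblast markers in the results below was not tested. Since a sample is a bulk of cells, fewer cells with a transcript and less of it per cell cannot be told apart.

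The word called stands for an adjusted p below 0.05. All adjusted p-values, unless another tool is named, come from the quasi-likelihood test of edgeR with Benjamini-Hochberg adjustment over 13611 genes. With shMed1 #2, 24 of the 32 tested members were called, 17 higher and 7 lower. That is 75%, against 43.7% of all genes tested (21.8% higher, 21.9% lower). With shMed1 #4, 12 members were called, 5 higher and 7 lower, or 37.5% against 28.2% of all genes (14% higher, 14.1% lower). Both comparisons use the same NTC samples. Called higher with both hairpins were 5 members, against 10.4% of all genes, and called lower with both were 6, against 10.1%; no member was called in opposite directions. Between the hairpins, shMed1 #4 against shMed1 #2, 15 members were called, 2 higher and 13 lower, or 46.9% against 26% of all genes (12.9% higher, 13.1% lower). Well-expressed genes are called more often, so shares among the 2452 genes with a mean of at least 100 CPM are given below as well.

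**Figure D1:**
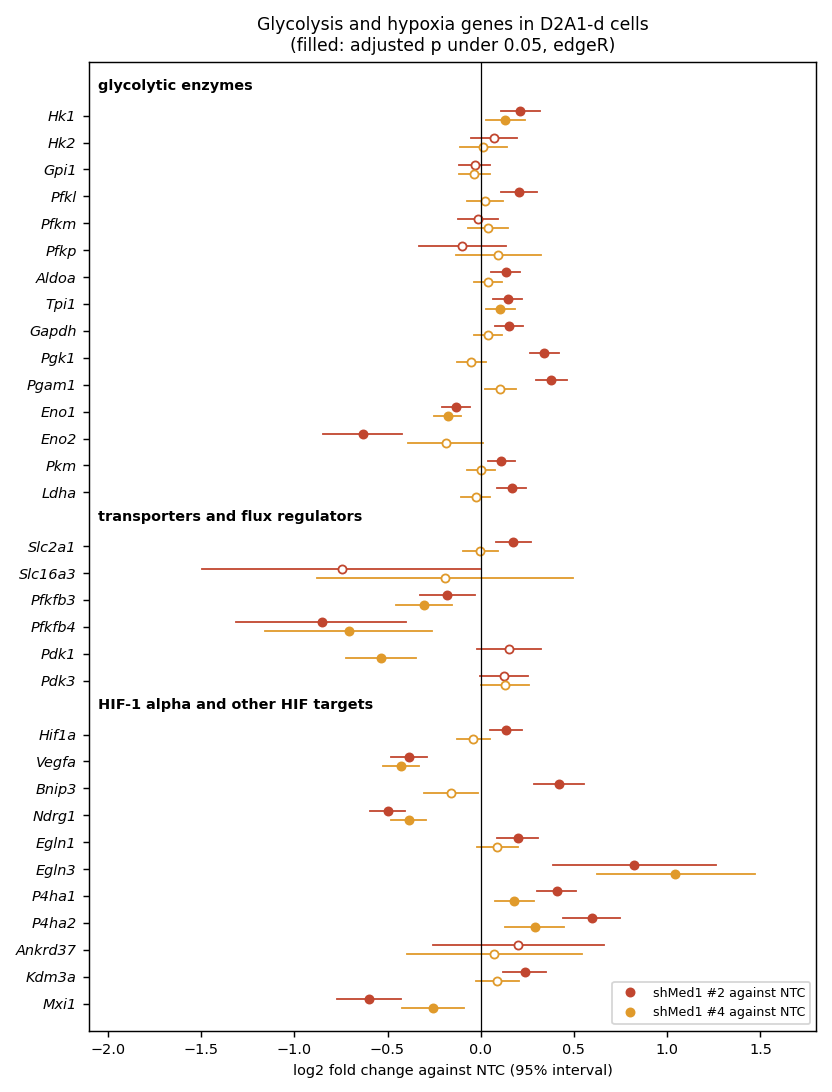
Log2 fold change against NTC (x axis, with 95% interval) of the 32 tested members, in red for shMed1 #2 and in orange for shMed1 #4, filled where the adjusted p was under 0.05. Most enzymes lie to the right of 0 with shMed1 #2 and near 0 with shMed1 #4, while Vegfa, Ndrg1, Pfkfb3 and Pfkfb4 lie to the left, and Egln3, P4ha1 and P4ha2 to the right, with both.

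In NTC, the later steps of glycolysis held the highest levels. Per kilobase of merged exon, Gapdh, which makes the first high-energy intermediate, stood at 782 ± 16.5 CPM per kb (SD, n = 3). Next came Pkm at 632 ± 9.04, Pgk1 at 466 ± 16.4 and Eno1 at 416 ± 13.6 CPM per kb, then Ldha, Aldoa, Tpi1 and Pgam1 between 361 and 151 CPM per kb. These 8 levels were each apart from the next by more than their SDs. Gpi1 followed at 59.04 ± 2.05 CPM per kb, and then Hif1a at 53.6 ± 3.14 CPM per kb. The entry and commitment enzymes were lower: Pfkm at 32.8, Pfkl at 23.8, Hk1 at 13.3 and Hk2 at 10.7 CPM per kb. Among the transporters, Slc2a1 stood at 44.04 ± 1.51 CPM per kb, which did not differ from Vegfa at 46.2 ± 1.01 CPM per kb beyond their spreads. Slc16a3, the monocarboxylate transporter that exports lactate from many glycolytic tumours, stood at 0.329 CPM per kb. Slc16a1, another monocarboxylate transporter, stood at 45.5 ± 1.28 CPM per kb. It is outside the set and was added here after its values were seen. Lengths are of all exons merged, so genes with many alternative exons read low on this scale.

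The first comparison asks how the enzymes stood with shMed1 #2. Of the 15 tested enzymes, 9 were called higher and 2 lower, with a median log2 fold change of 0.13 against -0.0035 for all genes. Hk1, Pfkl, Aldoa, Tpi1, Gapdh, Pgk1, Pgam1, Pkm and Ldha rose, and Eno1 and Eno2 fell. Hk2, Gpi1, Pfkm and Pfkp did not pass the test. The share called was 73.3%. Among the 12 enzymes with at least 100 CPM, 9 were higher and 1 lower, beside 45.6% of such genes called higher, 20% lower and 65.6% in either direction. The median log2 fold change of those 12 was 0.15, and that of all such genes was 0.087.

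The 2 largest rises lay side by side in the payoff phase. Pgk1 (phosphoglycerate kinase, the first ATP-producing step; ENSMUSG00000062070.12, chromosome X, 106187100 to 106203699, plus strand, GRCm38 as for all positions here) had 1321, 1310.3 and 1341 CPM in shMed1 #2 samples, 995, 981 and 1050.1 CPM in shMed1 #4 samples and 1015, 1086 and 1035 CPM in NTC samples. All 3 shMed1 #2 samples lay above the 6 others, and the shMed1 #4 and NTC samples overlapped. The log2 fold change was 0.34 (adjusted p = 2.98e-12, SE 0.0384) with shMed1 #2 and -0.051 (95% interval -0.13 to 0.026, adjusted p = 0.348) with shMed1 #4. Pgam1, the mutase that acts on its product (ENSMUSG00000011752.7, chromosome 19, 41911923 to 41918660, plus strand), had 392, 375 and 399 CPM in shMed1 #2 samples, 327, 314 and 323 CPM in shMed1 #4 samples and 289, 304 and 304 CPM in NTC samples. The 3 groups did not overlap, in the order shMed1 #2, shMed1 #4, NTC. The log2 fold change was 0.38 (adjusted p = 1.57e-12, SE 0.0419) with shMed1 #2, and 0.10 (adjusted p = 0.0543, SE 0.0423) with shMed1 #4, which passed once shMed1 #4 replicate 2 was left out (adjusted p = 0.0455).

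The abundant enzymes that bracket them moved less. Gapdh (ENSMUSG00000057666.18, chromosome 6, 125161715 to 125166467, minus strand), the oxidising step before Pgk1, had 3732, 3489 and 3564 CPM in shMed1 #2 samples, 3418, 3414 and 3144 CPM in shMed1 #4 samples and 3156, 3269.8 and 3277 CPM in NTC samples. Each shMed1 #2 sample exceeded each NTC sample, and shMed1 #4 and NTC overlapped. The log2 fold change was 0.15 (adjusted p = 0.000478, SE 0.0376) with shMed1 #2 and 0.040 (95% interval -0.035 to 0.12, adjusted p = 0.466) with shMed1 #4. Gapdh has near-identical pseudogenes, between which reads can be split. One, Gm13394, 99.9% identical over 1000 bases, held 12.8% as many counts and had a log2 fold change of 0.15 (adjusted p = 0.00169) with shMed1 #2. How the counting split such reads cannot be seen in the tables.

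Pkm (pyruvate kinase, the last step; ENSMUSG00000032294.17, chromosome 9, 59656368 to 59679375, plus strand) had 3432, 3356 and 3448 CPM in shMed1 #2 samples, 3315, 3021 and 3144 CPM in shMed1 #4 samples and 3116, 3157 and 3206 CPM in NTC samples. The shMed1 #2 samples lay above all NTC samples, while shMed1 #4 and NTC overlapped. Pkm changed on the log2 scale by 0.11 (adjusted p = 0.0105, SE 0.037) with shMed1 #2; that call was lost without NTC replicate 1 (adjusted p = 0.0535), with scaling by library size alone (0.153) and with upper quartile scaling (0.0669). With shMed1 #4 it had 7.1e-05 (95% interval -0.074 to 0.074, adjusted p = 0.999). Ldha, the lactate dehydrogenase chain common in tumours (ENSMUSG00000063229.15, chromosome 7, 46841475 to 46855627, plus strand), had 1346, 1307 and 1369.8 CPM in shMed1 #2 samples, 1167, 1209 and 1145 CPM in shMed1 #4 samples and 1165, 1203 and 1221 CPM in NTC samples. The shMed1 #2 samples again stood above the 6 others, which overlapped. Ldha had a log2 fold change of 0.16 (adjusted p = 0.000188, SE 0.0379) with shMed1 #2 and -0.028 (95% interval -0.10 to 0.047, adjusted p = 0.635) with shMed1 #4.

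Of the other enzymes that rose with shMed1 #2, Hk1, which primes glucose by phosphorylation, changed by 0.21 (adjusted p = 0.000399, SE 0.0516) on the log2 scale. Pfkl, the liver-type chain of the committing phosphofructokinase, changed by 0.20 (adjusted p = 0.000238, SE 0.0478). Aldoa, which cleaves the hexose, changed by 0.13 (adjusted p = 0.00264, SE 0.038), a call lost with library size alone (adjusted p = 0.0564). Tpi1, which interconverts the triose phosphates, changed by 0.14 (adjusted p = 0.00133, SE 0.0384). All 4 had shMed1 #2 samples above all NTC samples. Hk2, the inducible hexokinase of many tumours, had 66.4, 66.3 and 67.8 CPM in shMed1 #2 samples, 65.1, 62.2 and 65.5 CPM in shMed1 #4 samples and 68.2, 63.3 and 59.5 CPM in NTC samples. The NTC samples overlapped both knockdown groups, and shMed1 #4 lay below shMed1 #2. Its log2 fold change of 0.071 (95% interval -0.055 to 0.20, adjusted p = 0.382) with shMed1 #2 did not pass. Gpi1, Pfkm and Pfkp had log2 fold changes of -0.033, -0.017 and -0.099 (adjusted p = 0.567, 0.83 and 0.524).

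Eno1 and Eno2, enolases, which turn phosphoglycerate into phosphoenolpyruvate, were lower with shMed1 #2, whereas the muscle-type enolase Eno3, described with the genes outside the set, rose with both hairpins. Eno1 (ENSMUSG00000063524.13, chromosome 4, 150236721 to 150248879, plus strand) had 2064, 2059 and 2000.5 CPM in shMed1 #2 samples, 2047, 1911 and 1968 CPM in shMed1 #4 samples and 2172, 2315 and 2218 CPM in NTC samples. All 6 knockdown samples lay below all NTC samples. The log2 fold change was -0.13 (adjusted p = 0.00265, SE 0.0374) with shMed1 #2 and -0.18 (adjusted p = 9.12e-05, SE 0.0374) with shMed1 #4. Its near-identical gene Eno1b (99.5% identity) held 17.8% as many counts and fell as well. It had -0.26 (adjusted p = 2.03e-06) and -0.20 (adjusted p = 0.000378) for the 2 hairpins in that order. The pseudogene Gm4735 (99.6% identity), at 5.61% as many counts, was called with neither, with -0.075 (adjusted p = 0.242) and -0.044 (adjusted p = 0.571). Gm5855 (96.3% identity), at 0.334%, had -0.45 (adjusted p = 0.0308) and -0.027 (adjusted p = 0.931). Such copies can share reads. Eno2, the neuronal-type enolase (ENSMUSG00000004267.16, chromosome 6, 124760053 to 124769673, minus strand), had 16.9, 21.7 and 14.8 CPM in shMed1 #2 samples, 25.4, 22.6 and 24.6 CPM in shMed1 #4 samples and 24.8, 28.1 and 29.8 CPM in NTC samples. The shMed1 #2 samples were below all others, and shMed1 #4 overlapped NTC. Eno2 had a log2 fold change of -0.63 (adjusted p = 6.65e-07, SE 0.106) with shMed1 #2 and -0.19 (95% interval -0.39 to 0.013, adjusted p = 0.165) with shMed1 #4.

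With shMed1 #4 the enzymes moved little. Only 3 of 15, or 20%, were called, 2 higher and 1 lower, with a median log2 fold change of 0.025. Among genes of at least 100 CPM, 47.8% were called (30.5% higher, 17.3% lower), beside the same 2 and 1 of the 12 enzymes at that level. Eno1 fell, as given above. Hk1 rose by 0.13 (adjusted p = 0.0481, SE 0.052) and Tpi1 by 0.10 (adjusted p = 0.032, SE 0.0385), and both calls depended on the setting. Hk1 was no longer called under DESeq2 (adjusted p = 0.118), with library size alone (0.121), or without NTC replicate 1 (0.187) or 2 (0.15), shMed1 #2 replicate 3 (0.0519), or shMed1 #4 replicate 1 (0.113) or 2 (0.188). For Hk1 the call was also lost with upper quartile scaling (0.0889), no filter on low counts (0.0797) and only the groups compared (0.056). The same held without the robust option (0.0532) and with a block for replicate number (0.0565). Tpi1 lost its call with library size alone (adjusted p = 0.109), upper quartile scaling (0.0734), no filter (0.054) and only the groups compared (0.059). It was also lost without NTC replicate 1 (0.139) or 3 (0.068) or shMed1 #4 replicate 1 (0.158). The 12 other tested enzymes had log2 fold changes from -0.19 (Eno2) to 0.10 (Pgam1).

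Set directly against each other, shMed1 #4 was lower than shMed1 #2 in 6 of the 15 enzymes, Pfkl, Gapdh, Pgk1, Pgam1, Pkm and Ldha, and higher in 1, Eno2. All 6 belong to the 12 with at least 100 CPM, where 29.4% of all genes were lower, 14.8% higher and 44.3% called. The differences were -0.39 (adjusted p = 4.73e-14, SE 0.0384) for Pgk1, -0.27 (adjusted p = 1.36e-07) for Pgam1, -0.19 (adjusted p = 3.54e-05) for Ldha and -0.18 (adjusted p = 0.00232) for Pfkl. Those of Gapdh, -0.11 (adjusted p = 0.0183), and Pkm, -0.11 (adjusted p = 0.0183), were lost with library size alone (adjusted p = 0.0585 and 0.0617) and without single libraries. For Gapdh these were shMed1 #2 replicate 1 (adjusted p = 0.139) and shMed1 #4 replicate 3 (0.14). For Pkm they were shMed1 #2 replicates 1 (0.0523) and 3 (0.0763) and shMed1 #4 replicate 2 (0.13). Eno2 differed by 0.44 (adjusted p = 0.000955, SE 0.109).

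Summed over the 16 enzymes, the counts made up 14987, 14603 and 14815 CPM in the shMed1 #2 samples, 13910.1, 13417 and 13358.5 CPM in the shMed1 #4 samples, and 13364, 13886.5 and 13789 CPM in the NTC samples. The shMed1 #2 sums lay above all others, and those of shMed1 #4 and NTC overlapped. Abundant genes as a class also stood higher against NTC. Genes with a mean of at least 100 CPM had a median log2 fold change of 0.087 with shMed1 #2 and 0.041 with shMed1 #4. The sums rest on TMM scaling and were not taken under other scalings. The means were 14801.5 ± 192 CPM for shMed1 #2, 13562 ± 303 CPM for shMed1 #4 and 13680 ± 278 CPM in NTC (SD, n = 3 each).

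**Figure D2:**
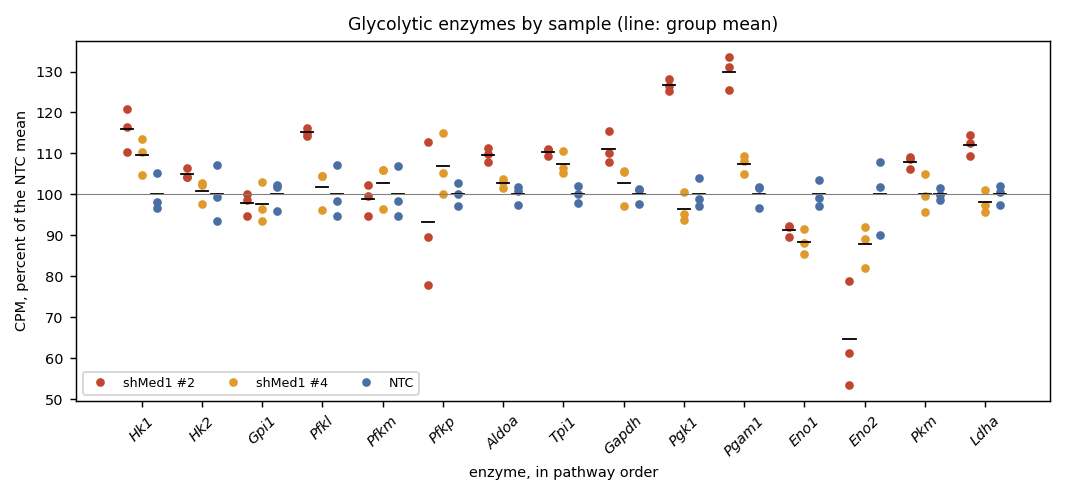
CPM of each tested enzyme as a percent of its NTC mean (y axis, starting at 50), in pathway order, with 1 point per sample and a line at the group mean; red is shMed1 #2, orange shMed1 #4 and blue NTC. Pgk1 and Pgam1 stand highest with shMed1 #2, Eno1 is below 100 in all 6 knockdown samples, and Eno2 is lowest with shMed1 #2.

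Shares of isozymes were taken per kilobase over the members of each family that belong to the 35 genes. Hk1 held 57.9 ± 1.09% of the hexokinase sum of Hk1 and Hk2 with shMed1 #2, 57.5 ± 1.62% with shMed1 #4 and 55.5 ± 2.75% in NTC. Of phosphofructokinase, Pfkl held 44.9 ± 1.26%, 40.8 ± 2.02% and 41.1 ± 2.95% in that order of groups, Pfkm held 53.1%, 56.9% and 56.7%, and the platelet-type Pfkp held 1.99%, 2.35% and 2.25%. The single NTC samples ranged over 52.9 to 58.4% for Hk1 and 38.2 to 44.1% for Pfkl, so the Hk1 means of both hairpins lay inside the NTC range and the Pfkl mean with shMed1 #2 just above it. Aldolase was almost wholly Aldoa, with Aldoc at 0.0282%, 0.0497% and 0.0678%. Aldoc had 8 counts over the shMed1 #2 samples, 13 over the shMed1 #4 samples and 17 over the NTC samples, which is too few for a test. Eno2 held 0.985 ± 0.185%, 1.38 ± 0.0391% and 1.39 ± 0.112% of the sum of Eno1 and Eno2. That sum leaves out Eno3, which is not among the 35 genes and stood at 137 CPM per kb in shMed1 #2 samples, 141 in shMed1 #4 samples and 113 in NTC samples, above Eno2 and below Eno1.

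Among the transporters and flux regulators, Pfkfb3 and Pfkfb4 fell with both hairpins. They are 2 of the bifunctional enzymes that set the level of the allosteric activator of phosphofructokinase. Pfkfb1 and Pfkfb2, outside the set and added here after their values were seen, were called with neither hairpin. Pfkfb1 had log2 fold changes of -0.19 (adjusted p = 0.486) with shMed1 #2 and -0.14 (adjusted p = 0.666) with shMed1 #4. Pfkfb2 had -0.28 (adjusted p = 0.176) and -0.020 (adjusted p = 0.945) in that order. Pfkfb3 (ENSMUSG00000026773.19, chromosome 2, 11471433 to 11554077, minus strand) had 42.9, 39.5 and 40.3 CPM in shMed1 #2 samples, 36.1, 38.99 and 37.3 CPM in shMed1 #4 samples and 47.4, 46.3 and 45.3 CPM in NTC samples. All 6 knockdown samples lay below all NTC samples. Pfkfb3 had a log2 fold change of -0.18 (adjusted p = 0.0413, SE 0.0738) with shMed1 #2 and -0.31 (adjusted p = 0.000865, SE 0.0751) with shMed1 #4. The first of these calls was lost without any of NTC replicates 1, 2 and 3 (adjusted p = 0.12, 0.0819 and 0.0534), without shMed1 #2 replicate 2 (0.145) or 3 (0.105), under DESeq2 (0.11) and with no filter on low counts (0.0891).

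Pfkfb4, its low-level relative (ENSMUSG00000025648.18, chromosome 9, 108991778 to 109032228, plus strand), had 3.1, 2.67 and 3.23 CPM in shMed1 #2 samples, 2.56, 3.01 and 4.41 CPM in shMed1 #4 samples and 4.48, 5.06 and 6.72 CPM in NTC samples. Again no knockdown sample reached the NTC range. The log2 fold change was -0.85 (adjusted p = 0.00129, SE 0.229) with shMed1 #2 and -0.70 (adjusted p = 0.0116, SE 0.225) with shMed1 #4. The shMed1 #4 call was lost under DESeq2 (adjusted p = 0.065) and without NTC replicate 3 (0.14) or shMed1 #4 replicate 1 (0.102) or 2 (0.0525).

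Slc2a1, the main glucose importer GLUT1 (ENSMUSG00000028645.11, chromosome 4, 119108711 to 119137983, plus strand), rose with shMed1 #2. It had 174, 171 and 178 CPM in shMed1 #2 samples, 152, 151 and 159.7 CPM in shMed1 #4 samples and 151, 161 and 151 CPM in NTC samples. In it, shMed1 #2 lay above the other 6 samples, which overlapped. The log2 fold change was 0.17 (adjusted p = 0.00143, SE 0.0469) with shMed1 #2 and -0.0027 (95% interval -0.097 to 0.092, adjusted p = 0.976) with shMed1 #4, and the hairpins differed by -0.18 (adjusted p = 0.00236). Slc16a3 averaged 1.04 CPM in shMed1 #2 samples, 1.53 CPM in shMed1 #4 samples and 1.75 CPM in NTC samples, 9 to 17 counts a sample, and its log2 fold changes of -0.74 and -0.19 did not pass (adjusted p = 0.0972 and 0.73).

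The pyruvate dehydrogenase kinases, which hold pyruvate back from the mitochondrial oxidation route, split. Pdk1 (ENSMUSG00000006494.11, chromosome 2, 71873224 to 71903858, plus strand) had 31.7, 34.4 and 40.3 CPM in shMed1 #2 samples, 21.4, 22.7 and 21.9 CPM in shMed1 #4 samples and 30.7, 33.1 and 31.96 CPM in NTC samples. The shMed1 #4 samples lay below the other 6, and shMed1 #2 and NTC overlapped. Pdk1 fell by 0.54 on the log2 scale with shMed1 #4 (SE 0.0938, adjusted p = 2.97e-06); with shMed1 #2 its log2 fold change was 0.15 (95% interval -0.019 to 0.32, adjusted p = 0.148), which passed without shMed1 #2 replicate 1 (0.0433). The hairpins differed by -0.69 (adjusted p = 3.21e-09, SE 0.0917). Pdk3, which stood above Pdk1 per length, had log2 fold changes of 0.12 and 0.13 (adjusted p = 0.112 and 0.126), and both passed without NTC replicate 3 (0.0185 and 0.0254). Of the 6 genes, 1 was called higher and 2 lower with shMed1 #2, and 0 higher and 3 lower with shMed1 #4, or 50% with each hairpin, against 43.7% of all genes with shMed1 #2, which is near, and 28.2% with shMed1 #4. Between the hairpins, 0 were higher and 2 lower with shMed1 #4, Slc2a1 and Pdk1, or 33.3% against 26% of all genes.

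**Figure D3:**
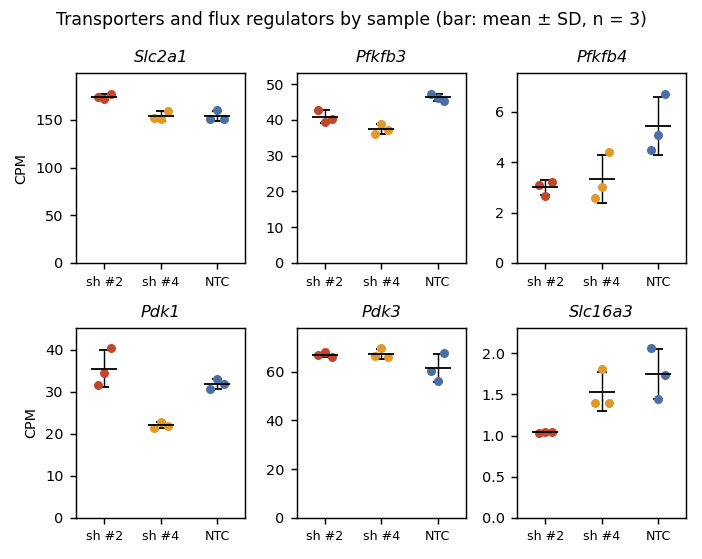
CPM (y axes, from 0) of the 6 transporters and flux regulators, with 1 point per sample and the mean ± SD of 3 samples; red is shMed1 #2, orange shMed1 #4 and blue NTC. Pfkfb3 and Pfkfb4 are below NTC in all 6 knockdown samples, Pdk1 is lowest with shMed1 #4, and Slc2a1 is highest with shMed1 #2.

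The second group, Hif1a and the HIF targets outside glycolysis, held genes that moved in both directions. With shMed1 #2, 10 of the 11 tested were called, 7 higher and 3 lower, or 90.9% against 43.7% of all genes tested and 65.6% of those with at least 100 CPM. With shMed1 #4, 6 were called, 3 higher and 3 lower, or 54.5% against 28.2% and 47.8%. Their median log2 fold change was 0.20 with shMed1 #2 and 0.072 with shMed1 #4, and that of all genes tested was -0.0035 and 0.00086. Only 4 of the 11 had at least 100 CPM. Of those 4, 2 were higher and 2 lower with shMed1 #2, and 1 higher and 2 lower with shMed1 #4. Their median was -0.13 with shMed1 #2 and -0.21 with shMed1 #4, and that of all such genes was 0.087 and 0.041. Egln3, P4ha1 and P4ha2 were higher with both hairpins, and Vegfa, Ndrg1 and Mxi1 were lower with both. Hif1a, Bnip3, Egln1 and Kdm3a were called with shMed1 #2 and not with shMed1 #4, and Ankrd37 with neither.

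Hif1a, the oxygen-labile chain (ENSMUSG00000021109.13, chromosome 12, 73901375 to 73947530, plus strand), had 354, 348 and 339 CPM in shMed1 #2 samples, 322, 306 and 294 CPM in shMed1 #4 samples and 329, 295 and 324 CPM in NTC samples. The shMed1 #2 samples lay above the 6 others, and shMed1 #4 and NTC overlapped. Hif1a mRNA rose with shMed1 #2, by 0.14 (adjusted p = 0.00766, SE 0.0435) on the log2 scale, a call lost without NTC replicate 2 (adjusted p = 0.145) and with library size alone (0.0933). With shMed1 #4 its log2 fold change was -0.040 (95% interval -0.13 to 0.048, adjusted p = 0.55). Its protein, through which oxygen acts, was not measured. An antisense gene on the opposite strand, Gm15283, held 609 counts on average beside 2758 for Hif1a. Whether counting used strand is not stated in the sources used here, so reads of such pairs cannot be told apart. The same limit holds for other members whose spans overlap an opposite-strand gene. Mean counts were 33 for Ankrd37 beside 609 for Ufsp2, and 149 for Pfkp beside 960 for Pitrm1. They were 940 for Pfkm beside 1583 for Senp1, and 7829 for Aldoa beside 2110 for Fam57b.

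The oxygen-sensing prolyl hydroxylases moved in different directions. Egln1 and Egln3, which HIF induces in turn, were called higher with shMed1 #2, and Egln3 with shMed1 #4 as well. Egln2, which is outside the set and was added here after its values were seen, was called lower with shMed1 #2 (log2 fold change -0.46, adjusted p = 1.73e-06) and had -0.14 (adjusted p = 0.192) with shMed1 #4. Egln3, the most inducible of them (ENSMUSG00000035105.5, chromosome 12, 54178981 to 54203860, minus strand), had 6.09, 4.88 and 5.07 CPM in shMed1 #2 samples, 6.52, 6.38 and 5.8 CPM in shMed1 #4 samples and 3.27, 3.13 and 2.66 CPM in NTC samples. Every knockdown sample lay above every NTC sample. Egln3 had a log2 fold change of 0.82 (adjusted p = 0.00122, SE 0.219) with shMed1 #2 and 1.04 (adjusted p = 5.69e-05, SE 0.213) with shMed1 #4, the largest rises of any tested member, at 23 to 56 counts a sample. Egln1, the main hydroxylase at normal oxygen, stood at 104 ± 1.3 CPM for shMed1 #2, 96.2 ± 5.74 CPM for shMed1 #4 and 90.5 ± 4.41 CPM in NTC (SD, n = 3 each). It had a log2 fold change of 0.20 (adjusted p = 0.00206, SE 0.0552) with shMed1 #2; with shMed1 #4 the value was 0.089 (95% interval -0.022 to 0.20, adjusted p = 0.248).

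The catalytic chains of collagen prolyl hydroxylase, which modify procollagen, rose with both hairpins and further with shMed1 #2. P4ha1 (ENSMUSG00000019916.14, chromosome 10, 59323296 to 59373304, plus strand) had 126, 124 and 123 CPM in shMed1 #2 samples, 105, 103 and 109 CPM in shMed1 #4 samples and 91.03, 96.4 and 93.2 CPM in NTC samples. The 3 groups did not overlap. P4ha1 changed by 0.41 (adjusted p = 2.85e-10, SE 0.052) on the log2 scale with shMed1 #2 and 0.18 (adjusted p = 0.0062, SE 0.0531) with shMed1 #4, a difference of -0.23 (adjusted p = 0.000314). P4ha2 (ENSMUSG00000018906.14, chromosome 11, 54100095 to 54131665, plus strand) had 50.6, 51.4 and 53.2 CPM in shMed1 #2 samples, 39.9, 42.2 and 43.5 CPM in shMed1 #4 samples and 38.4, 33.6 and 30.8 CPM in NTC samples, also without overlap. P4ha2 changed by 0.60 (adjusted p = 3.57e-10, SE 0.0768) with shMed1 #2 and 0.29 (adjusted p = 0.00303, SE 0.0796) with shMed1 #4, a difference of -0.31 (adjusted p = 0.000839). The shMed1 #4 call of P4ha2 was lost without NTC replicate 3 (adjusted p = 0.0634).

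Bnip3, a mitochondrial receptor for mitophagy (ENSMUSG00000078566.8, chromosome 7, 138890836 to 138909519, minus strand), had 71.5, 69.3 and 69.1 CPM in shMed1 #2 samples, 47.8, 52.1 and 41.04 CPM in shMed1 #4 samples and 50.2, 55.9 and 51.1 CPM in NTC samples. The shMed1 #2 samples stood above the 6 others, and shMed1 #4 and NTC overlapped. Here the log2 fold change was 0.42 (adjusted p = 2.56e-07, SE 0.068) with shMed1 #2 and -0.16 (95% interval -0.30 to -0.014, adjusted p = 0.0957) with shMed1 #4. With shMed1 #4 it passed with library size alone (adjusted p = 0.0486) and without shMed1 #4 replicate 2 (0.019). The hairpins differed by -0.58 (adjusted p = 1.09e-10, SE 0.069). Its antisense neighbour Gm45507 held 298 counts on average against 482 for Bnip3 and had a log2 fold change of 0.30 (adjusted p = 0.00121) with shMed1 #2. Kdm3a, a histone demethylase, had a log2 fold change of 0.23 (adjusted p = 0.000395, SE 0.0569) with shMed1 #2 and had 0.089 (adjusted p = 0.263) with shMed1 #4.

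Vegfa, the endothelial growth factor that HIF induces in most cells (ENSMUSG00000023951.17, chromosome 17, 46016993 to 46032369, minus strand), had 153, 153 and 149 CPM in shMed1 #2 samples, 150.5, 133 and 157 CPM in shMed1 #4 samples and 201, 193 and 199 CPM in NTC samples. All 6 knockdown samples lay below all NTC samples, and the 2 hairpins overlapped. Vegfa fell by 0.39 on the log2 scale with shMed1 #2 (SE 0.0481, adjusted p = 1.15e-10) and by 0.43 with shMed1 #4 (SE 0.0483, adjusted p = 8.14e-12). Ndrg1, a stress-responsive gene linked to differentiation (ENSMUSG00000005125.13, chromosome 15, 66929318 to 66969640, minus strand), had 148, 141 and 151 CPM in shMed1 #2 samples, 156, 167 and 153 CPM in shMed1 #4 samples and 207, 216 and 199.8 CPM in NTC samples. Here too every knockdown sample was below every NTC sample. It fell by 0.50 with shMed1 #2 (SE 0.0471, adjusted p = 2.15e-15) and by 0.39 with shMed1 #4 (SE 0.0468, adjusted p = 1.19e-10). Gm17035, antisense to Ndrg1 with 388 counts on average beside 1454, fell as well, by 0.57 (adjusted p = 1.42e-09) with shMed1 #2 and by 0.51 (adjusted p = 5.72e-08) with shMed1 #4.

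Mxi1, an antagonist of Myc (ENSMUSG00000025025.14, chromosome 19, 53310518 to 53375810, plus strand), had 25.5, 28.8 and 29.7 CPM in shMed1 #2 samples, 32.1, 34.1 and 40.2 CPM in shMed1 #4 samples and 42.9, 38.3 and 45.97 CPM in NTC samples. Those with shMed1 #2 were lowest, and shMed1 #4 and NTC overlapped. Its log2 fold change was -0.60 (adjusted p = 1.38e-08, SE 0.0865) with shMed1 #2 and -0.26 (adjusted p = 0.0134, SE 0.0834) with shMed1 #4, and the hairpins differed by 0.34 (adjusted p = 0.002). The shMed1 #4 call was lost under DESeq2 (adjusted p = 0.0663) and without NTC replicate 3 (0.125) or shMed1 #4 replicate 1 (0.131) or 2 (0.062), and that between the hairpins without shMed1 #4 replicate 3 (0.0649). Ankrd37, an ankyrin-repeat gene often read as a HIF marker, averaged 4.15 CPM in shMed1 #2 samples, 3.8 CPM in shMed1 #4 samples and 3.62 CPM in NTC samples, with log2 fold changes of 0.20 (95% interval -0.26 to 0.66, adjusted p = 0.511) and 0.072 (95% interval -0.40 to 0.54, adjusted p = 0.86).

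Car9 and Adm were near the floor of detection. Car9, the membrane carbonic anhydrase widely used as a marker of hypoxia, had 13 counts over the shMed1 #2 samples, 34 over the shMed1 #4 samples and 17 over the NTC samples. It was not tested. Adm, the vasodilator adrenomedullin, had 0 counts in all 9 samples, which allows up to 0.115 CPM for shMed1 #2, 0.118 CPM for shMed1 #4 and 0.119 CPM in NTC (3 counts over each group's 3 libraries, counting error only).

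Between the hairpins, 6 of the 11 tested genes were called, 1 higher with shMed1 #4 (Mxi1) and 5 lower (Hif1a, Bnip3, P4ha1, P4ha2 and Kdm3a). That is 54.5%, against 26% of all genes tested and 44.3% of those with at least 100 CPM. Hif1a differed by -0.18 (adjusted p = 0.00113). Kdm3a, at -0.15 (adjusted p = 0.0462), lost its call under DESeq2 (0.116), with library size alone (0.103) and with any of 6 libraries left out. These were NTC replicate 2 (0.0521), shMed1 #2 replicates 1 (0.104) and 2 (0.284), and shMed1 #4 replicates 1, 2 and 3 (0.0697, 0.0606 and 0.133). The Kdm3a call was also lost with upper quartile scaling (0.0769), no filter on low counts (0.0776) and only the groups compared (0.0572). A block for replicate number ended it too (0.0514).

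**Figure D4:**
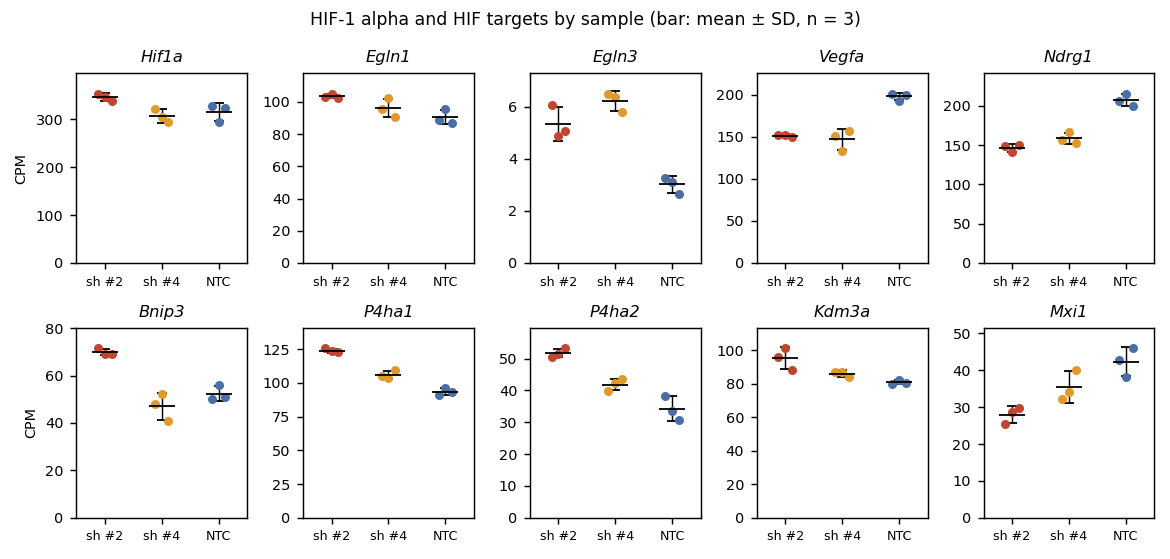
CPM (y axes, from 0) of Hif1a and of 9 HIF targets outside glycolysis, with 1 point per sample and the mean ± SD of 3 samples; red is shMed1 #2, orange shMed1 #4 and blue NTC. Egln3, P4ha1 and P4ha2 are above NTC in all 6 knockdown samples, Vegfa and Ndrg1 are below it in all 6, and Bnip3 is raised with shMed1 #2.

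Promoter sequences of the HIF list are shown for members called with both hairpins, to set beside genes that rose and fell. HIF binds a short core, ACGTG or GCGTG, read on either strand, which are written here in capitals. The windows are those of RefSeq, of build GRCm38.p6, 300 bases each from 250 before to 50 after the annotated start nearest to the start of the gene, 5′ to 3′ on the gene's strand. They lie at chr12:54203825-54204124 (minus strand) for Egln3, chr11:54100674-54100973 (plus) for P4ha2, chr10:59323046-59323345 (plus) for P4ha1, chr19:53310256-53310555 (plus) for Mxi1 and chr17:46032328-46032627 (minus) for Vegfa. The P4ha2 start lies 829 bases inside the GENCODE gene model. Ndrg1, which also fell with both hairpins, had no window among these promoters, so it is named only.
Egln3: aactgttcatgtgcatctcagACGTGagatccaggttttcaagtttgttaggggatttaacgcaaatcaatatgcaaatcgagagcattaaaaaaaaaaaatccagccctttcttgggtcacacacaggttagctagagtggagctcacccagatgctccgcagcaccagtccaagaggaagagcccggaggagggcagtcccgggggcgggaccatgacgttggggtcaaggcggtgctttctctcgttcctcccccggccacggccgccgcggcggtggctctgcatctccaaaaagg
P4ha2: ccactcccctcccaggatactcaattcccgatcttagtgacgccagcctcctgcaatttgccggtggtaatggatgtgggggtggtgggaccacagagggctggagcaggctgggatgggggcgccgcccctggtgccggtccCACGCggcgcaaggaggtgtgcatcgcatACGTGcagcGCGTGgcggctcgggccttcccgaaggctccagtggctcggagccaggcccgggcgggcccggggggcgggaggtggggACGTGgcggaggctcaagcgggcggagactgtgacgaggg
P4ha1: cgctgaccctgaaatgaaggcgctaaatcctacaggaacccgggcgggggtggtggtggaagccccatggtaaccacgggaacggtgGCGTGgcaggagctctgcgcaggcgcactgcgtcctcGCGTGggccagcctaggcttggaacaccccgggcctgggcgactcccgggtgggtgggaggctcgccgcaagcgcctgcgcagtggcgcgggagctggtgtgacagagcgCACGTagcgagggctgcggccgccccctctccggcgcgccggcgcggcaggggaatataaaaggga
Mxi1: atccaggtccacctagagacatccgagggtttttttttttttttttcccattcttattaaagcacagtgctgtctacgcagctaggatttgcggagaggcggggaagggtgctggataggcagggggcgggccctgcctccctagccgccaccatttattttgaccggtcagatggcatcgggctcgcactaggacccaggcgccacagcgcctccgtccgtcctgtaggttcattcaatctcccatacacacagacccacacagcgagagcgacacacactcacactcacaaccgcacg
Vegfa: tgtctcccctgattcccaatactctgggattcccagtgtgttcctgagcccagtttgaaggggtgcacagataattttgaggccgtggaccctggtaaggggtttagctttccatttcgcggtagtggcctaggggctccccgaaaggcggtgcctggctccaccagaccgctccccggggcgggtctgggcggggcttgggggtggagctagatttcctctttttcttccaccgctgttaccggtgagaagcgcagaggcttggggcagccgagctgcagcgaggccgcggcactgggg

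The 3 genes that rose each held at least 1 core in these windows. Egln3 had 1, beginning 229 bases before the start. P4ha2 had 4, which begin 107, 78 and 69 bases before the start and 11 after it, and P4ha1 had 3, at 163, 126 and 16 bases before it. The windows of Mxi1 and Vegfa, which fell, held none, but 2 of the 3 RefSeq starts of Mxi1 and 1 of the 2 of Vegfa did. By start, nearest first, Mxi1 had 0, 1 and 1 cores and Vegfa had 0 and 2. The contrast with the genes that rose thus rests on the start taken, and Ndrg1, which also fell, could not be read. A difference in cores between genes that rose and genes that fell is not shown. Of all 32851 promoter windows in the table, 43.8% held at least 1 core, 8.93% at least 3 and 3.86% at least 4. Over all RefSeq starts of a gene, 31 of the 34 members in the table (91.2%) had a core at some start, against 12628 of 27025 genes (46.7%): 13 of 16 enzymes, 6 of 6 transporters and flux regulators and 12 of 12 in the HIF list. The comparison genes were not chosen for being expressed, and a gene with more starts has more chances of a core. Expression, number of starts and base composition were not matched. Many members were listed as known HIF targets, so a high share with a core can follow from how the genes were chosen. These shares are descriptions. A match is a run of letters and shows no binding, and the absence of one concerns only these letters in this window.

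Around these members, 105 further genes of the same pathways were read from 5 lists. Their counts are to be read against the 43.7% of all genes called with shMed1 #2 and the 28.2% called with shMed1 #4. Of the other isozymes and the genes of hexose entry (27 genes, 16 tested), 4 were higher and 4 lower with shMed1 #2, and 2 higher and 1 lower with shMed1 #4. Slc2a6, a facilitative hexose transporter of lysosomes, had 10.6, 10.2 and 11.4 CPM in shMed1 #2 samples, 13.8, 12.2 and 13.7 CPM in shMed1 #4 samples and 22.4, 23.3 and 19.6 CPM in NTC samples. It fell with both hairpins, with log2 fold changes of -1.02 (adjusted p = 1.38e-11, SE 0.119) and -0.71 (adjusted p = 4.4e-07, SE 0.115) in that order. Eno3, the muscle-type enolase, had 238, 231 and 247 CPM in shMed1 #2 samples, 252, 234 and 249 CPM in shMed1 #4 samples and 195, 189 and 208 CPM in NTC samples, and rose, with 0.28 (adjusted p = 3.14e-07) and 0.31 (adjusted p = 2.96e-08). The aldose epimerase Galm had a log2 fold change of 1.33 (adjusted p = 4.13e-09, SE 0.186) with shMed1 #2 and had 0.32 (adjusted p = 0.284) with shMed1 #4. The fructokinase Khk had -0.64 (adjusted p = 0.0426) with shMed1 #2, lost under DESeq2 (0.128), with no filter (0.0701) and without NTC replicate 1 (0.192) or 3 (0.0529) or shMed1 #2 replicate 3 (0.257), and -0.29 (adjusted p = 0.436) with shMed1 #4.

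Of 20 genes that handle pyruvate and lactate, 17 were tested; 5 were higher and 6 lower with shMed1 #2, and 2 higher and 3 lower with shMed1 #4. Pcx, the pyruvate carboxylase that feeds the citric acid cycle, had 29.7, 22.1 and 22.5 CPM in shMed1 #2 samples, 15.6, 16.8 and 21.1 CPM in shMed1 #4 samples and 38.5, 40.6 and 42.6 CPM in NTC samples. It fell with both, with -0.71 (adjusted p = 2.54e-09, SE 0.0949) and -1.18 (adjusted p = 1.22e-15, SE 0.101). Pck2, the mitochondrial enzyme that makes phosphoenolpyruvate from oxaloacetate, had 85.8, 90.8 and 94.3 CPM in shMed1 #2 samples, 96.6, 104 and 108 CPM in shMed1 #4 samples and 152, 165 and 159.9 CPM in NTC samples, and fell with -0.82 (adjusted p = 6.08e-24, SE 0.0523) and -0.63 (adjusted p = 1e-17, SE 0.0516). All knockdown samples of both genes lay below all NTC samples. Gpt2, the mitochondrial alanine aminotransferase, also fell, with log2 fold changes of -0.35 (adjusted p = 1.63e-09) with shMed1 #2 and -0.48 (adjusted p = 8.91e-14) with shMed1 #4, and Pdhx, a structural part of the pyruvate dehydrogenase complex, rose, with log2 fold changes of 0.54 (adjusted p = 2.83e-08) with shMed1 #2 and 0.41 (adjusted p = 3.65e-05) with shMed1 #4.

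Of 16 subunits and regulators of HIF, 15 were tested. With shMed1 #2, 3 were higher and 6 lower, and with shMed1 #4, 3 were higher and 3 lower. Log2 fold changes in this list ran from -1.37 to 0.41 with shMed1 #2 and from -1.13 to 0.45 with shMed1 #4. Between the hairpins they ran from -0.93 to 1.09. The genes named here are those called with both hairpins, and the largest falls are not among them. Arnt, the constitutive partner, had 66.7, 63.4 and 67.5 CPM in shMed1 #2 samples, 67.1, 71.4 and 68.98 CPM in shMed1 #4 samples and 84.8, 75.4 and 74.3 CPM in NTC samples. It fell with both hairpins, with log2 fold changes of -0.25 (adjusted p = 0.00057, SE 0.0616) with shMed1 #2 and -0.18 (adjusted p = 0.0218, SE 0.0613) with shMed1 #4. The second call was lost under DESeq2 (0.0747) and without NTC replicate 1 (0.238) or shMed1 #4 replicate 1 (0.0983). Siah2, a ubiquitin ligase that acts on prolyl hydroxylases, had 32.5, 32.05 and 32.4 CPM in shMed1 #2 samples, 34.2, 34.2 and 41.6 CPM in shMed1 #4 samples and 47.999, 50.01 and 50.4 CPM in NTC samples, and fell, with log2 fold changes of -0.61 (adjusted p = 2.71e-10) with shMed1 #2 and -0.43 (adjusted p = 4.69e-06) with shMed1 #4. Eloc, a component of the VHL ligase, rose, with log2 fold changes of 0.41 (adjusted p = 1.36e-08) with shMed1 #2 and 0.45 (adjusted p = 2.16e-09) with shMed1 #4, as did Cited2, which competes with HIF for its coactivator, with log2 fold changes of 0.20 (adjusted p = 0.00018) with shMed1 #2 and 0.19 (adjusted p = 0.000645) with shMed1 #4.

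Of 32 HIF targets outside the member list, 28 were tested; 9 were higher and 8 lower with shMed1 #2, and 5 higher and 8 lower with shMed1 #4. That is 60.7% with shMed1 #2 and 46.4% with shMed1 #4, against 43.7% and 28.2% of all genes. Of these, 2 were called in opposite directions by the hairpins, Gbe1, a glycogen branching enzyme (0.27, adjusted p = 0.00463, with shMed1 #2 and -0.25, adjusted p = 0.0191, with shMed1 #4), and Tfrc, the transferrin receptor (-0.43, adjusted p = 2.84e-14, and 0.17, adjusted p = 0.00102), both named here after their values were seen. Ddit4, an inhibitor of the growth kinase mTORC1, had 13.8, 9.17 and 12.3 CPM in shMed1 #2 samples, 22.2, 17.8 and 25.5 CPM in shMed1 #4 samples and 31.2, 33.4 and 40.5 CPM in NTC samples, and fell, with log2 fold changes of -1.57 (adjusted p = 1.3e-12, SE 0.129) with shMed1 #2 and -0.68 (adjusted p = 1.61e-05, SE 0.115) with shMed1 #4. The 3 groups did not overlap in it. Pgf, a relative of Vegfa, had 29.3, 27.7 and 31.5 CPM in shMed1 #2 samples, 25.5, 23.1 and 28.4 CPM in shMed1 #4 samples and 15.6, 16.8 and 14.8 CPM in NTC samples, and rose, with log2 fold changes of 0.91 (adjusted p = 3.72e-12) with shMed1 #2 and 0.71 (adjusted p = 6.15e-08) with shMed1 #4. Stc2 averaged 0.884 CPM in shMed1 #2 samples, 0.895 CPM in shMed1 #4 samples and 1.95 CPM in NTC samples, at few counts, and its log2 fold changes of -1.12 (adjusted p = 0.0166) and -1.10 (adjusted p = 0.0295) were both lost under DESeq2 (0.0815 and 0.128). Leaving out NTC replicate 1 also ended both (0.0783 and 0.122). So did shMed1 #2 replicates 1 and 2 for the first (0.0508 and 0.0922), and NTC replicate 2 and shMed1 #4 replicates 1 and 2 for the second (0.0531, 0.187 and 0.174). Over the 28 tested genes of this list, log2 differences of shMed1 #4 from shMed1 #2 ran from -0.73 to 2.02.

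**Figure D5:**
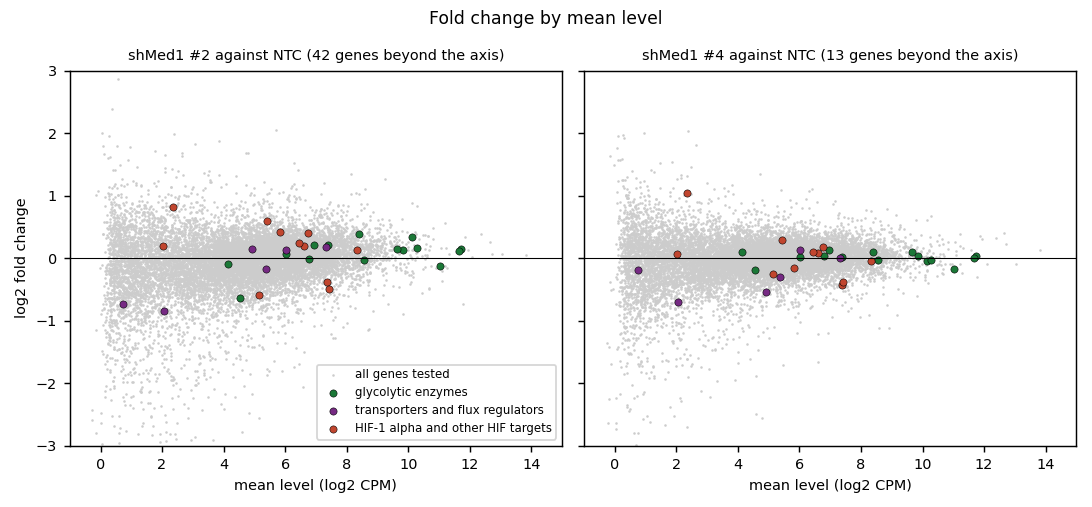
Log2 fold change against NTC (y axis) by mean level (x axis, log2 CPM) of all genes tested in grey, with shMed1 #2 on the left and shMed1 #4 on the right; members are coloured by list, in green for enzymes, purple for transporters and flux regulators and red for the HIF list. Most enzymes sit at the high end of the level scale, and at high levels the cloud of all genes is narrow.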

How the data were processed

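RNA of 9 samples was sequenced on a BGISEQ-500 instrument, per the labels. The authors deposited raw counts per gene, and STAR, HTSeq and the build GRCm38 (mm10) were used, per the submitters' processing notes. Their versions, the gene models and any use of strand are not stated in the sources used here. Symbols and positions came from GENCODE M21 on GRCm38 (54587 of 55335 identifiers matched with their version, 55154 without it).

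The scripts kept the 13611 genes that filterByExpr passed for these groups, scaled counts by TMM (factors 0.982 to 1.02) and fitted all 9 samples with 1 coefficient per group in edgeR 4.0.16 (R 4.3.3, quasi-likelihood, robust). The common biological coefficient of variation was 3.68%. Samples within a group were not copies of the same counts: their counts differed beyond sampling noise, with chi-square values 1.55 to 2.53 times the degrees of freedom. Library preparation alone can add such an excess, so it does not tell repeat libraries from separate cultures. CPM uses the scaled library sizes; floors set by 3 counts cover counting error only, as no molecular identifiers are recorded. The fits were tested on simulated data with 200 changed genes drawn from all levels. Over the 3 comparisons, 34 to 46% of 1.2-fold, 70 to 76% of 1.5-fold and 82 to 90% of 2-fold changes were called in the right direction. Small changes can thus go uncalled. Unchanged genes made up 3.21 to 5.52% of the calls. The members' levels and the number of changed genes differ from that setting, so these shares do not carry over to them.

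The 35 members and the lists of other genes were chosen with earlier results of these data known, so their counts are descriptions. Values in every sample are given for members called in any comparison with a log2 fold change of at least 0.3 in size, and for Slc2a1, Hk2, Gapdh, Pkm, Ldha, Hif1a and Vegfa. Up to 4 genes were named from each other list, those called with both hairpins first and then the largest changes, beside Med1; 1 gene that this rule names is not reported here. Egln2, Gbe1, Tfrc, Pfkfb1, Pfkfb2 and Slc16a1 were added outside the rule, and no alternatives were run for them. Near copies were found with blastn (at least 95% identity over 100 bases), and only those with a mean of at least 20 counts were compared. Alternatives were DESeq2 1.42.0, scaling by RLE, by upper quartile or by library size, no filter or a minimum mean of 1 CPM, a fit without the robust option or of 2 groups at a time, a block for replicate number, and each library left out in turn. Figures were drawn with matplotlib 3.10.9.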

Additional observations from a re-analysis of the deposited data

Results flagged for a closer look

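For 6 members the log2 fold changes of the 2 hairpins against NTC had opposite signs and the difference between the hairpins, tested directly in edgeR's quasi-likelihood fit, passed. Both comparisons share the NTC samples, and for each gene only 1 of the 2 hairpins was called against NTC. The uncalled log2 fold changes with shMed1 #4 were -0.0027 for Slc2a1, -0.028 for Ldha, -0.040 for Hif1a, -0.051 for Pgk1 and -0.16 for Bnip3. That of Pdk1 with shMed1 #2 was 0.15. Except for Bnip3, the 95% intervals of these uncalled values included 0, so changes in opposite directions are not shown. In all 6 members shMed1 #4 was below shMed1 #2. Bnip3 differed by -0.58 (adjusted p = 1.09e-10, SE 0.069) on the log2 scale and Pdk1 by -0.69 (adjusted p = 3.21e-09, SE 0.0917). Pgk1 differed by -0.39 (adjusted p = 4.73e-14, SE 0.0384). Ldha differed by -0.19 (adjusted p = 3.54e-05, SE 0.0379), Slc2a1 by -0.18 (adjusted p = 0.00236, SE 0.0468) and Hif1a by -0.18 (adjusted p = 0.00113, SE 0.0435). Pdk1 is the member that was called with shMed1 #4 and not with shMed1 #2, and the other 5 were called with shMed1 #2. Med1 itself differed between the hairpins by 0.10 (95% interval -0.079 to 0.28, adjusted p = 0.461).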

How the results depend on the processing

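Of 96 member results (32 genes in 3 comparisons), 51 were called. Under the alternatives run, 0 of the 51 changed sign and 13 lost the call at least once, as given beside each gene, while 9 uncalled results passed at least once and 13 uncalled results changed sign. Over single values, 1622 kept direction and call, 61 lost the call, 13 gained it and 32 changed sign. The same alternatives for the other named genes and Med1 were added after seeing the data: of 42 results, 6 lost the call in some setting and 0 changed sign. Where a cause is not the smaller sample or another scaling, the cause was not tested.

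Counts moved as follows. Enzymes higher with shMed1 #4 numbered 2, and 1 under DESeq2, 1 without the robust option, 0 with library size alone, upper quartile scaling, no filter or only the groups compared, and 0 to 2 with a library left out. Flux genes lower with shMed1 #2 numbered 2, 1 under DESeq2 and with no filter, and 1 to 2 with a library left out; those higher numbered 1, and 1 to 2 with a library left out; those higher with shMed1 #4 numbered 0, and 0 to 1. Between the hairpins, HIF genes higher with shMed1 #4 numbered 1, 2 with library size alone and with upper quartile scaling, and 1 to 2 with a library left out; enzymes higher numbered 1, and 1 to 2. Total genes called stayed within 1.5 times, at 5290 to 6138, 3172 to 3878 and 2817 to 3566 with a library left out.

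The replicate numbers did not pair the samples: deviations of same-numbered samples correlated from -0.0589 to 0.0563. With the replicate number as a block, 1 enzyme was higher with shMed1 #4 in place of 2, since Hk1 had an adjusted p of 0.0565, and Kdm3a between the hairpins had 0.0514; the block changed no other member's call.

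Sign changes were all of uncalled values, which were 0.20 for Ankrd37 with shMed1 #2 and 0.15 for Pfkfb4 between the hairpins in the reported fit. With shMed1 #4, Hk2 had -0.010 with library size alone and -0.0015 with upper quartile scaling, and Pfkl -0.00028 with library size alone. Pkm had -0.025 with library size alone, -0.016 with upper quartile scaling, -0.0023 with only the groups compared, -0.00033 with the stricter filter and -0.00069 with the replicate block. Gpi1 between the hairpins had 0.022 and 0.013 under those 2 scalings. With a library left out, values ran over -0.055 to 0.035 (Pfkm), -0.26 to 0.018 (Pfkp) and -0.083 to 0.33 (Ankrd37) with shMed1 #2, and over -0.034 to 0.066 (Hk2), -0.016 to 0.077 (Pfkl), -0.035 to 0.032 (Pkm), -0.029 to 0.026 (Slc2a1) and -0.027 to 0.14 (Ankrd37) with shMed1 #4. Between the hairpins they ran over -0.042 to 0.027 (Gpi1), -0.11 to 0.31 (Pfkfb4), -0.019 to 0.020 (Pdk3), -0.094 to 0.019 (Vegfa) and -0.26 to 0.16 (Ankrd37). Uncalled differences between the hairpins that passed in some setting were those of Pfkp (0.0386 without shMed1 #2 replicate 3), Aldoa (0.0273 under DESeq2, 0.0487 without NTC replicate 3), Ndrg1 (0.0261 with library size alone, 0.0402 with upper quartile scaling, 0.0459 without shMed1 #4 replicate 3) and Egln1 (0.0451 without shMed1 #4 replicate 2), all adjusted p. Depth did not allow a test of Aldoc, Car9 and Adm, and several tested genes, such as Slc16a3, Stc2, Khk, Pfkfb4, Egln3 and Ankrd37, rest on few counts a sample.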

Other observations

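The pentose phosphate pathway, which branches from glycolysis to make NADPH and ribose, was read beside it (10 genes, all 10 tested). With shMed1 #2, 4 were higher and 2 lower, and with shMed1 #4, 2 were higher and 3 lower. That is 60% called with shMed1 #2, against 43.7% of all genes tested (21.8% higher, 21.9% lower). With shMed1 #4 it is 50%, against 28.2% (14% higher, 14.1% lower). G6pdx, its committing dehydrogenase, had 208, 215 and 206 CPM in shMed1 #2 samples, 239, 225 and 222 CPM in shMed1 #4 samples and 194, 189 and 191 CPM in NTC samples. All 6 knockdown samples lay above all NTC samples, with log2 fold changes of 0.13 (adjusted p = 0.0143, SE 0.0449) with shMed1 #2 and 0.26 (adjusted p = 2.51e-06, SE 0.0446) with shMed1 #4. The first call was lost with library size alone (adjusted p = 0.137), with upper quartile scaling (0.0654), and without NTC replicate 2 (adjusted p = 0.0541) or shMed1 #2 replicate 2 (0.0738). Its relative of the endoplasmic reticulum, H6pd, had 45.4, 42.6 and 45.8 CPM in shMed1 #2 samples, 45.6, 43.3 and 48.2 CPM in shMed1 #4 samples and 53.8, 60.5 and 62.3 CPM in NTC samples. It fell with both hairpins, with log2 fold changes of -0.40 (adjusted p = 1.53e-06, SE 0.0705) with shMed1 #2 and -0.36 (adjusted p = 2.1e-05, SE 0.0704) with shMed1 #4. Prps1, which makes the activated ribose for nucleotides, rose with both, with log2 fold changes of 0.38 (adjusted p = 2.02e-08) with shMed1 #2 and 0.18 (adjusted p = 0.00941) with shMed1 #4, the second lost without NTC replicate 1 (0.116) or shMed1 #4 replicate 3 (0.0591). The epimerase Rpe had a log2 fold change of 0.28 (adjusted p = 0.000565) with shMed1 #2 and had 0.077 (adjusted p = 0.461) with shMed1 #4.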
